A study of Mus musculus with 62 samples.

Results

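The clustered histone genes are the 64 genes of the deposited table of 23845 genes whose names begin with Hist1h, Hist2h, Hist3h or Hist4h. They comprised 6 H1, 16 H2A, 18 H2B, 11 H3 and 13 H4 genes. Their levels were followed in 62 polyadenylated RNA libraries, of which 15 were from testis, 23 from the caput and 24 from the cauda of the epididymis, each made from the tissue of 1 adult male mouse between 8 and 14 weeks of age. All mice were of the C57BL/6 strain and all were wild type except the Rag2-/- mice. The specific pathogen free (SPF) mice, which carry a normal microbiota, were the controls and gave 3 testis, 4 caput and 4 cauda libraries. Germ-free (GF) mice, born and kept in sterile isolators, gave 4, 6 and 6. F1 males, sired by GF fathers with SPF mothers and raised conventionally, gave 3 caput and 3 cauda libraries, and Rag2-/- males, which lack T and B cells, gave 2 and 3. Recolonized GF mice, descended from GF animals and bred with a microbiota, gave 3 libraries of each tissue, and a further group of SPF mice that the labels call set 2 gave 5 of each. The SPF, GF and recolonized GF mice came from different colonies, so colony and rearing cannot be told apart in comparisons between them. Cauda replicate 4 of the GF mice came from a swollen epididymis and was left out of all means and tests.

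Most clustered histone genes are replication-dependent. They are transcribed mainly in S phase, have no introns, and their mRNAs usually end shortly after a conserved stem-loop in place of a poly(A) tail. The stem-loop is bound by SLBP and lies just before the cut made by the U7 snRNP and CPSF73. Some members can also be cleaved at a downstream poly(A) signal, which gives a polyadenylated mRNA in cells that have left the cell cycle. Hist1h1t, Hist1h2aa and Hist1h2ba encode the testis variants H1t, TH2A and TH2B, made in male germ cells before histones are exchanged for transition proteins and then protamines. The libraries were made by oligo(dT) capture, so a level here is that of the polyadenylated RNA that was captured and not of all histone mRNA. In whole tissue, fewer cells of a type and less RNA per cell cannot be told apart.

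The stem-loop was searched for as a fixed pattern of 16 bases, a stem of 6 base pairs and a loop of 4 bases. It was found in the annotated GENCODE M21 transcripts of 43 of the 64 genes, in 8 forms. A stem-loop of another shape would have been missed by this search. The forms are shown with the loop in capitals and the stem in small letters, and the bases of the stem separate the H4 genes from the other classes. The form of 23 genes of H1, H2A, H2B and H3 is the first line, that of 7 H4 genes the second, and that of 6 genes including Hist1h1t the third. The fourth line is the form of Hist1h4a alone.
Most common form: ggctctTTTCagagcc
H4 form: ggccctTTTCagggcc
Hist1h1t form: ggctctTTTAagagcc
Hist1h4a form: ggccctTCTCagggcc
None of the H4 genes with a stem-loop had the most common form, and every stem-loop form found in an H4 gene occurred in H4 genes only. No stem-loop was found in the annotated transcript of the H4 gene Hist1h4k, so its form is unknown. The flanks of the stem-loop are printed for 6 genes whose levels lead the results, with the stem-loop in capitals and 5 bases on each side.
Hist2h2aa2: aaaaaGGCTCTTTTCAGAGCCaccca
Hist1h2bp: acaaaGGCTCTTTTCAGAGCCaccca
Hist1h3a: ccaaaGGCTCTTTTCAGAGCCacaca
Hist1h4a: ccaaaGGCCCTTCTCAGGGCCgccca
Hist1h4h: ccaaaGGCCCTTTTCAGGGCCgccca
Hist1h1t: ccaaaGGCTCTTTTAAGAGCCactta
GENCODE M21 is built on the same genome assembly (mm10) as the deposited table but is not the annotation that the authors used, so transcript ends may differ. The deposited rows list RefSeq transcripts. Hist1h1c, for example, had 1560 bases in M21, which is longer than its RefSeq span of chr13:23738807-23739531.

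RefSeq, on the same assembly, placed 63 of the 64 genes. On chromosome 13 there were 52 genes in 2 stretches, 21 at chr13:21715711-22043658 and 31 at chr13:23531044-23934913. A further 8 lay at chr3:96219885-96270192, 2 at chr11:58948911-58955192 and 1 at chr6:136803993-136804431. The annotated transcripts of 14 genes, 12 of which also had a stem-loop, carried the poly(A) signal AATAAA within 50 bases of their end. Another 31 had a stem-loop and no such signal, and 19 had neither. Of the 50-base windows of each transcript, the read length of these libraries, fewer than 20% were unique in the transcriptome for 13 members. Where the copies are in different rows, levels depend on how reads were divided between them and are uncertain. Among them Hist2h2aa2 had 0 of 479 windows unique, and the transcripts of Hist2h3c1 had 0 of 1771 and 0 of 1776. Hist1h2bq had 54 of 1966 in its longest transcript. Each of these rows in the table pools 2 loci, which lie on chromosome 3 for Hist2h2aa2 and Hist2h3c1. How reads were divided between the 2 pooled loci therefore does not change the level of the row. Windows were compared with single GENCODE genes, and what the pooled rows share with other rows was not examined.

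The libraries carried the defining markers of the testis and the caput. Summed germ cell markers lay between 53378 and 82824 TPM (a share of all transcripts, corrected for length) in testis and between 31.9 and 2298 in the cauda, where stored sperm are found. Caput epithelial markers summed to between 66538 and 99636 TPM in caput and to at most 560 in testis and 319 in cauda. The Hox genes listed as cauda markers reached at most 1.12 TPM in any library and did not mark the cauda in these data. TPM have the same total in every library and keep no read depth, so depth is unknown. The number of genes above 0 was between 13105 and 18822, and the lowest was in cauda replicate 2 of the Rag2-/- mice, in which Hist1h4i was listed at 0 and Hist2h3b reached 20.2 TPM against at most 1.67 in the other Rag2-/- cauda libraries.

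The clustered histone genes together made up more of the captured RNA in testis and cauda than in caput. Their TPM summed to 1478 ± 87.8 in SPF testis (SD, n = 3), 787 ± 48.6 in SPF caput (n = 4) and 1607 ± 209 in SPF cauda (n = 4). Much of this was 1 row, since Hist2h2aa2, an H2A gene, held 76.0% of the sum in SPF testis, 58.5% in caput and 57.6% in cauda. Of the 64 genes, 28 reached a mean of at least 1 TPM in SPF testis, 15 in SPF caput and 23 in SPF cauda. Over all 16 groups, 15 genes never reached that level and 16 reached a mean of 10 TPM in some group.

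Classes differed in where they were high. Class sums were taken without the testis variants, and for H2A and H2B they are given with and without the gene that dominates them. H1 was 16.4 TPM in SPF testis, 54.0 in caput and 87.7 in cauda, nearly all of it Hist1h1c, which encodes the linker histone H1.2. H2A was 1153 TPM in testis, 493 in caput and 972 in cauda, but 30.3, 32.0 and 45.8 without Hist2h2aa2. H2B was 162 TPM in testis, 198 in caput and 407 in cauda, most of it Hist1h2bc in the epididymis. Without Hist1h2bc the other 16 H2B genes summed to 134 TPM in testis, 12.7 in caput and 30.6 in cauda, so that they were highest in testis. H3 was 36.3, 18.5 and 24.2, and H4 was 89.2, 24.1 and 116. The ranges of SPF testis, caput and cauda did not overlap for H1. For H4, testis and cauda overlapped and both lay above every SPF caput library.

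**Figure D1:**
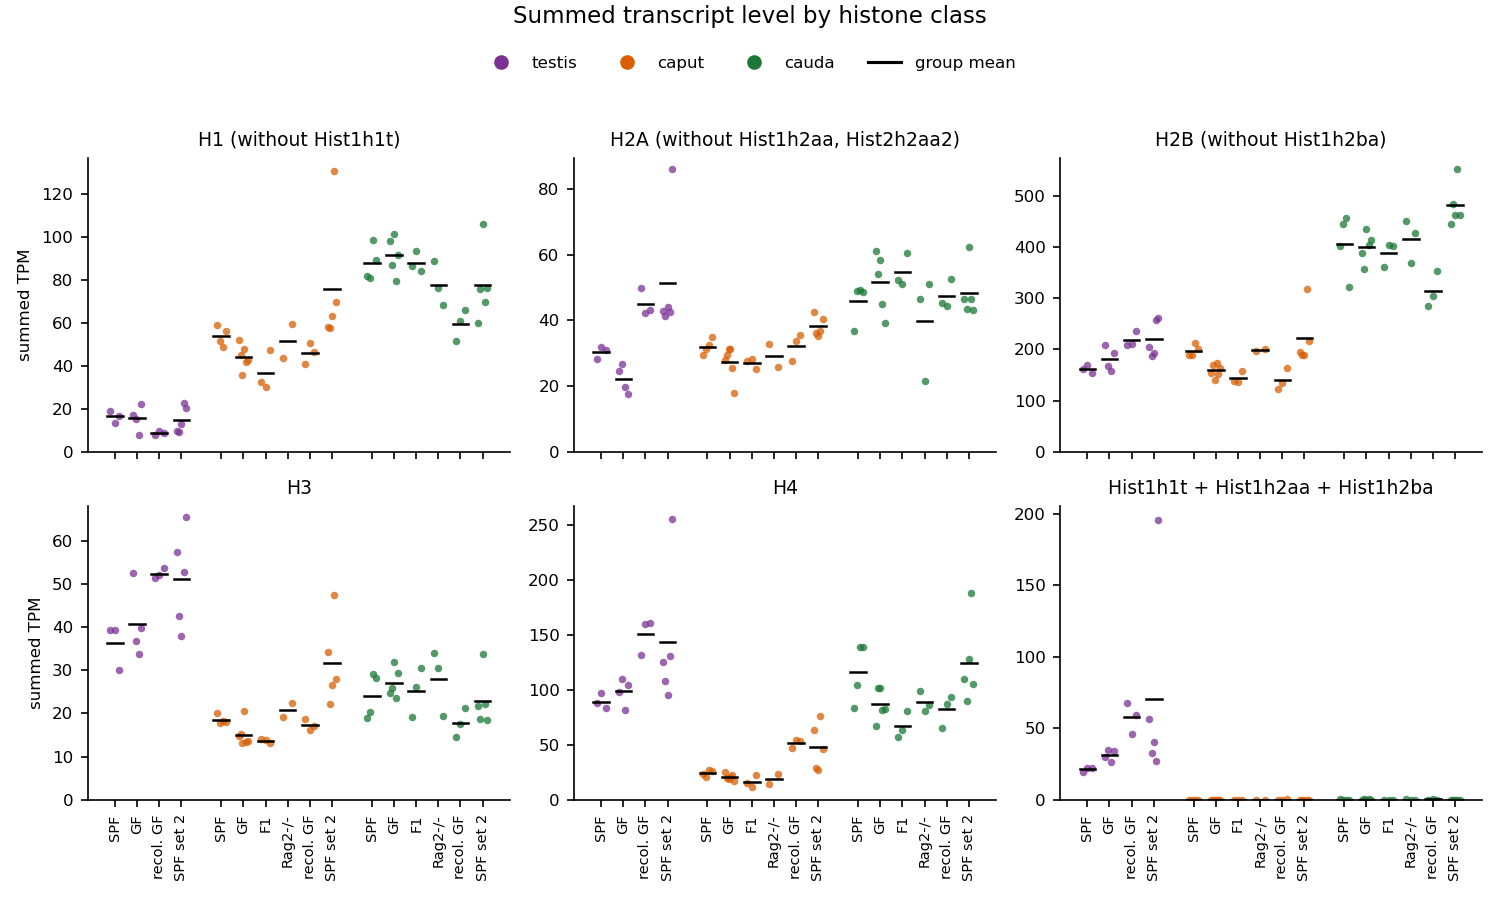
Summed TPM of each histone class (y axis, linear, from 0) in every library, by group and tissue (x axis), coloured by tissue, with the group mean as a short line and GF cauda replicate 4 left out. Without the testis variants and Hist2h2aa2, H1 and H2B of SPF mice were lowest in testis and highest in cauda (H2B was highest in testis, at 134 TPM, without Hist1h2bc), H4 was low in SPF caput (mean 24.1 TPM), and the 3 testis variants were near 0 outside the testis.

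The levels of the leading genes in each SPF library show these differences gene by gene. Hist2h2aa2 was 1058, 1204 and 1106 TPM in the 3 testis libraries, 509, 516, 422 and 396 in the 4 caput libraries and 674, 963, 966 and 1101 in the 4 cauda libraries. Testis and cauda overlapped and both lay above caput. Hist1h2bc, an H2B gene, was 29.1, 25.6 and 28.4 TPM in testis. In the caput it was 178, 176, 199 and 188 and in the cauda 372, 419, 418 and 295, with no overlap between any of the tissues. Hist1h1c was 17.2, 12.4 and 15.7 TPM in testis, and the caput libraries had 57.9, 50.1, 48.4 and 54.7 and the cauda libraries 80.4, 79.0, 96.6 and 87.3, again without overlap. Hist3h2a, an H2A gene of the chromosome 11 cluster, had means of 16.3, 27.2 and 38.8 TPM, and Hist2h3c1, an H3 gene, 15.4, 14.9 and 15.9.

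**Figure D2:**
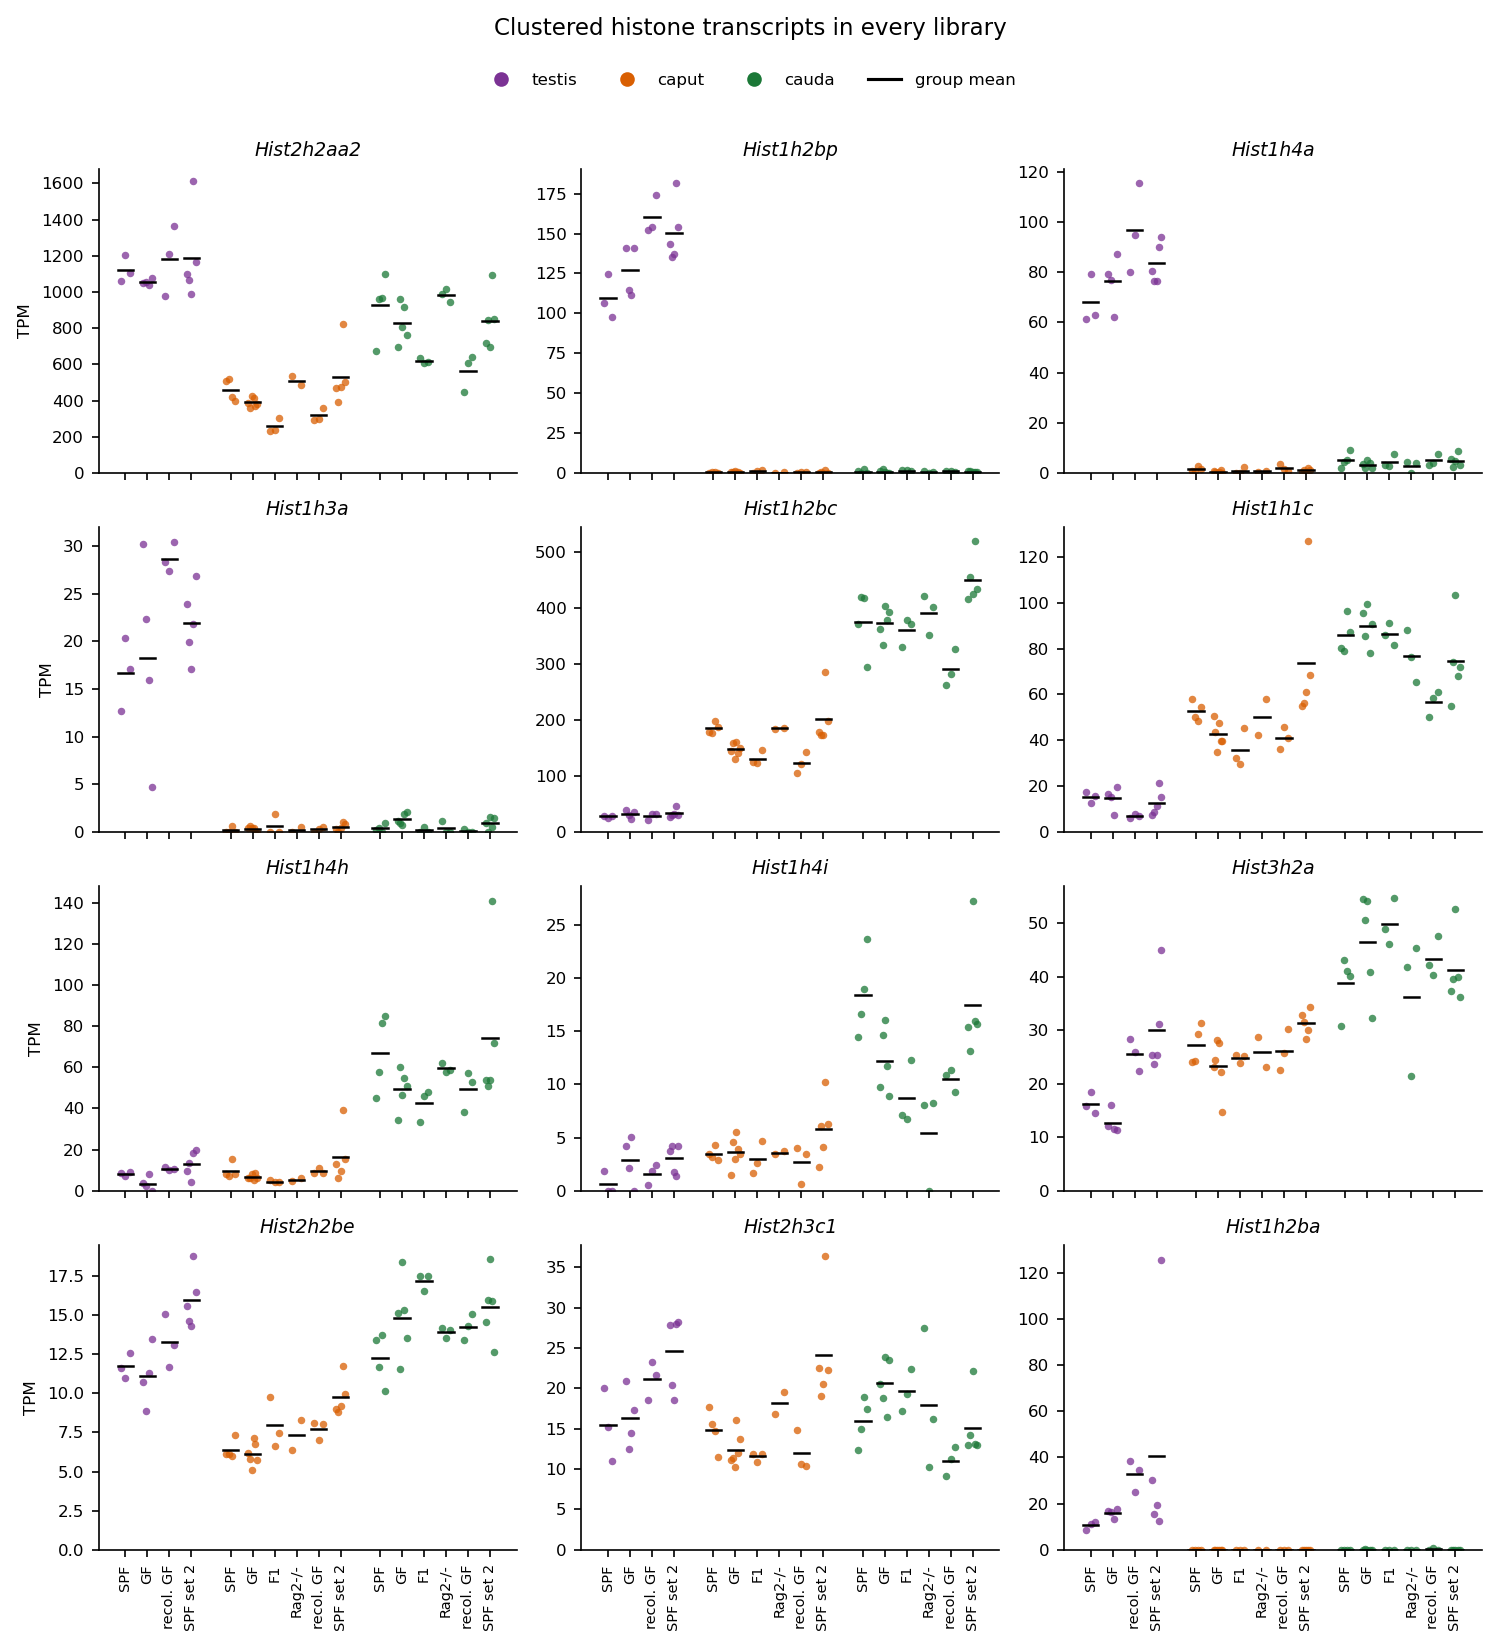
TPM of 12 clustered histone genes (y axes, linear, from 0, 1 panel per gene) in every library by group and tissue (x axis), with group means as short lines. Hist1h2bp, Hist1h4a, Hist1h3a and Hist1h2ba were high in testis only, Hist1h2bc and Hist1h1c were lowest in testis, and Hist1h4h and Hist1h4i of SPF mice were highest in cauda.

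The testis was compared with the caput to ask which members mark the germ cell tissue. Levels were tested on the log2(TPM + 1) scale with limma's moderated test across every gene whose mean over the SPF libraries reached 1 TPM. Calls required both an adjusted p no higher than 0.05 and a change of 1.5-fold or more. Fold changes on this scale understate the change of genes of low level. Which libraries of different tissues came from the same mouse is not stated in the sources used here, so they were treated as independent. Of the 64 genes 26 passed the level filter, 11 were higher in testis and 7 were lower. The same rule called 78.0% of all 14661 genes, 50.5% higher and 27.5% lower. The median log2 fold change of the 26 genes was 0.04 against 0.65 over all genes tested. Scaling the libraries by median-of-ratios factors moved the median of all genes to 0.19 and the members' calls to 10 higher and 8 lower.

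Apart from the testis variants, the largest rises in testis were those of an H2B, an H4 and an H3 gene of chromosome 13. Hist1h2bp was 107, 124 and 98.0 TPM in the SPF testis libraries against at most 0.78 in the caput, where it was listed at 0 in 2 of 4 libraries, a log2 fold change of 6.41 (SE 0.36, adjusted p = 9.71e-09). Hist1h4a was 61.5, 79.4 and 63.1 TPM in testis and 0.67, 0.96, 2.80 and 1.46 in caput, a log2 fold change of 4.87 (SE 0.37). Hist1h3a was 12.6, 20.4 and 17.1 TPM in testis and was above 0 in 1 of 4 caput libraries, at 0.65. All 3 genes were separated from the caput without overlap. Of the 50-base windows of the shorter Hist1h2bp transcript 53.8% were shared with Hist1h2bq, so its level is uncertain. The largest falls were those of Hist1h2bc, by 2.70 (SE 0.13) on the log2 scale, Hist1h1c, by 1.75, Hist1h4i, by 1.64, Hist1h2bg, by 1.08, and Hist2h3b, by 1.05. The call of Hist2h3b was lost without SPF testis replicate 1 or 2 (adjusted p = 0.0946 and 0.0955) and with array weights (0.052).

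Against the cauda, 7 of the 26 genes were higher in testis and 11 lower, beside 77.3% of all genes called. The members that were called higher in testis with the largest changes were Hist1h2bp (log2 fold change 6.06, SE 0.36), Hist1h3a (3.70), Hist1h4a (3.63) and the variants Hist1h2ba and Hist1h1t. The lowest in testis relative to cauda were H4 genes and the same H2B and H1 genes as above. Hist1h4i was 1.84, 0 and 0 TPM in testis and 14.5, 16.6, 19.0 and 23.7 in cauda (log2 fold change -3.76, SE 0.33). Hist1h2bc changed by -3.71, Hist1h4h by -2.83 and Hist1h1c by -2.44. Hist1h4f was listed at 0 in all 3 SPF testis libraries and was 3.98, 1.40, 7.56 and 4.38 TPM in cauda (adjusted p = 0.000162).

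Within the epididymis of the first SPF set, the members that were called were all higher in the cauda. Of the 26 genes tested, 14 were higher in SPF cauda than in SPF caput and none was lower, beside 35.2% of all genes called (19.0% higher, 16.2% lower). The median log2 fold change was 0.74 for the 26 genes and 0.03 over all genes. The largest rise was that of Hist1h4h, an H4 gene, which was 8.10, 7.01, 15.2 and 8.15 TPM in caput and 44.9, 57.6, 81.3 and 84.7 in cauda, without overlap (log2 fold change 2.69, SE 0.25, adjusted p = 4.04e-06). Hist3h2ba, an H2B gene, was 0.31, 1.29, 0.73 and 1.5 TPM in caput and 6.32, 7.44, 8.86 and 9.30 in cauda (2.23, SE 0.22). Hist1h4i (2.12), Hist1h4f (1.83) and Hist1h4n (1.53) followed, so that 4 of the 5 largest rises were H4 genes. The abundant Hist1h2bc and Hist2h2aa2 rose by log2 fold changes of 1.01 (SE 0.12) and 0.99 (SE 0.15), and Hist2h2be, an H2B gene that is known to give polyadenylated mRNA, by 0.83 (SE 0.11).

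**Figure D3:**
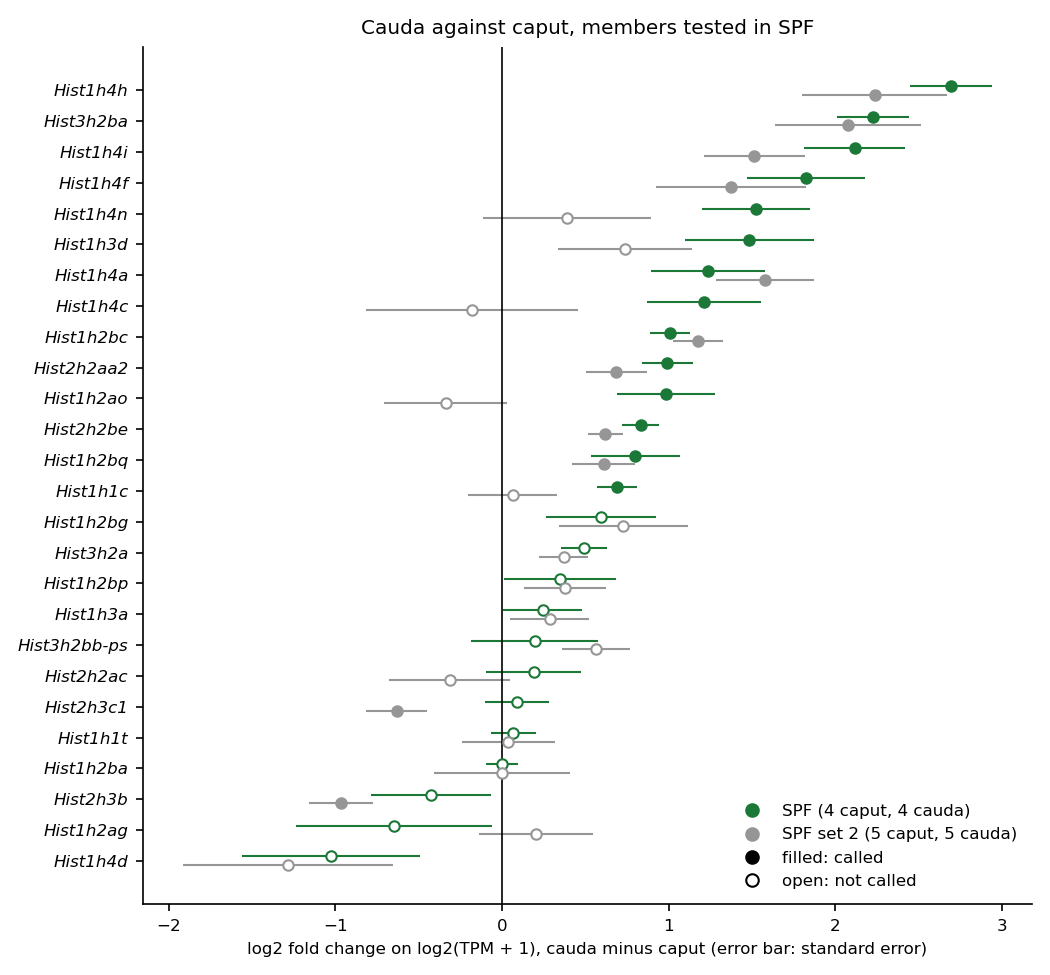
Log2 fold change on log2(TPM + 1), cauda minus caput (x axis), with its standard error, for the members tested in SPF (y axis), in SPF (green, 4 against 4 libraries) and in SPF set 2 (grey, 5 against 5). Filled points were called and open points were not. In SPF the 14 called genes all lie to the right of 0, with Hist1h4h at 2.69, and in set 2 Hist2h3b and Hist2h3c1 lie to the left of 0 and were called.

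Markers of other cells moved with this contrast. Summed neutrophil markers were 129 to 1410 TPM in SPF cauda, where 2 of 3 had a mean of at least 1 TPM, and 0 in every SPF caput library. Germ cell markers were 31.9 to 1213 TPM in SPF cauda (5 of 10 at a mean of at least 1 TPM) and 341 to 522 in SPF caput (4 of 10). Their part in the rise of the H4 and H2B genes was not tested. Of the members high in testis, Hist1h2bp reached at most 2.20 TPM in SPF cauda and Hist1h2ba was listed at 0 in all 4 libraries.

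SPF set 2, in which 39 of the 64 genes passed the filter, allowed the same tissue comparisons in other mice. In testis against caput, 19 members were higher and 9 lower, beside 78.1% of all genes called (45.7% higher, 32.5% lower). In testis against cauda 17 were higher and 11 lower, beside 77.5% (46.9% and 30.5%), and in cauda against caput 10 were higher and 2 lower, beside 43.8% (20.8% and 23.0%). Hist1h2bp (6.80, SE 0.24), Hist1h4a (5.52), Hist1h2ba, Hist1h1t and Hist1h3a (3.95) again had the largest rises in testis, and Hist1h2bc (-2.58) and Hist1h1c (-2.47) the largest falls relative to caput, followed by Hist1h2be (-1.48), Hist2h3b (-1.29) and Hist1h4n (-1.26). The call of Hist1h4n was lost without set 2 testis replicate 2, 3 or 4 or caput replicate 1 or 5 (adjusted p from 0.0546 to 0.0776). In cauda against caput, Hist1h4h rose by 2.24 (SE 0.44), Hist3h2ba by 2.08, Hist1h4a by 1.58, Hist1h4i by 1.52 and Hist1h4f by 1.38. Of the genes called in SPF cauda, Hist1h3d (0.74, SE 0.40), Hist1h4n (0.39, SE 0.50), Hist1h1c (0.06, SE 0.27), Hist1h4c (-0.18, SE 0.64) and Hist1h2ao (-0.34, SE 0.37) were not called in set 2, and whether the sets differed there was not tested. The 2 genes that fell, Hist2h3b (-0.97) and Hist2h3c1 (-0.63), were both H3 genes of chromosome 3. The call of Hist2h3c1 was lost with median-of-ratios scaling (-0.56) and without set 2 caput replicate 4 (-0.48), where the fold was under 1.5. Hist2h3c1 had no unique 50-base window, but its row pools 2 loci, and what it shares with other rows was not examined.

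The 3 testis variants were testis transcripts in these libraries. Their TPM summed to 21.1 ± 1.77 in SPF testis (n = 3), and in the epididymis no group mean exceeded 0.31 and no library exceeded 0.77. Hist1h2ba (TH2B) was 8.68, 11.1 and 12.1 TPM in SPF testis, Hist1h1t (H1t) 9.05, 7.71 and 5.26, and Hist1h2aa (TH2A) 1.39, 3.11 and 5.07. Hist1h2ba and Hist1h2aa were listed at 0 in all SPF epididymal libraries, and Hist1h1t was above 0 in 1 of them. Hist1h2ba and Hist1h1t were called higher in testis than in caput (adjusted p = 3.17e-11 and 2.5e-09), and of the tissue comparisons Hist1h2aa passed the filter in those of set 2 alone, where it was called as well (adjusted p = 5.5e-09). These levels were lower than those of Hist1h2bp and Hist1h4a, which are not named as testis variants. Hist1h1t had a stem-loop 185 bases before its annotated end and an AATAAA near that end. The annotated transcripts of Hist1h2aa (390 bases) and Hist1h2ba (384 bases) contained neither, and the part beyond them was not examined.

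Hist1h2ba and Hist1h2aa lie head to head, with 281 bases between their starts. The stretch between them is printed for chr13:23934187-23934436 on the plus strand, the 250 bases before the start of Hist1h2aa in RefSeq (GRCm38.p6), with the searched motifs in capitals, because it lies before 2 of the 3 testis variants.
Hist1h2aa promoter: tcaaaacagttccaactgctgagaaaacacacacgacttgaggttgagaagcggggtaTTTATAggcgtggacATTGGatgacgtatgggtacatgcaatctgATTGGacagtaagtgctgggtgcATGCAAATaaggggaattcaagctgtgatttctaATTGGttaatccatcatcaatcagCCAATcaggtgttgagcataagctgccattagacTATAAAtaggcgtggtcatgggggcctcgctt
The motifs, searched on both strands of the window from 250 bases before to 50 after each start, were TATAAA (the TATA box), CCAAT (the core of the CCAAT box), ATTTGCAT (the octamer bound by POU factors such as Oct1) and TGACGTCA (the cAMP response element bound by CREB and CREM). No motif contains another. Windows were given for 58 of the 64 genes. TATAAA was in 34 of them (58.6%, against 13.62% of 32851 promoters), CCAAT in 49 (84.5% against 37.41%), ATTTGCAT in 14 (24.1% against 1.74%) and TGACGTCA in 4 (6.9% against 1.79%). All 14 windows with the octamer belonged to H2A (7) or H2B (7) genes. Windows of head-to-head H2A and H2B genes overlap, so a single site can be counted for both genes. This holds for the octamer of Hist1h2aa and Hist1h2ba and for the TGACGTCA of Hist1h2ag and Hist1h2bj. The counts and shares of members are therefore not those of separate sites. CCAAT was in 3 of 12 H4 windows and in all 6 H1 windows.

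The 4 genes with TGACGTCA were Hist1h2ag, Hist1h2bj, Hist1h4a and Hist1h4h, of which Hist1h2ag and Hist1h2bj share the same site. Hist1h4a had one of the largest rises in testis and Hist1h4h the largest in SPF cauda, and parts of their promoters are printed from chr13:23761250-23761379 on the minus strand and chr13:23530914-23531043 on the plus strand, the 130 bases before each start, with motifs in capitals.
Hist1h4a promoter: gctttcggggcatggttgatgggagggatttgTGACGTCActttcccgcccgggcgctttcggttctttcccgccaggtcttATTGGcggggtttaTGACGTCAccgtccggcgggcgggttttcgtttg
Hist1h4h promoter: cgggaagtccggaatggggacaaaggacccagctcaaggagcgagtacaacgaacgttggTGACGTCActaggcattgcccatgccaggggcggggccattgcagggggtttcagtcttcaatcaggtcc
A match describes the letters only. Hist1h2ag changed by 0.21 (SE 0.34) and Hist1h2bj by -0.12 (SE 0.39) in cauda against caput of set 2, and neither was called.

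GF mice were compared with SPF mice to ask whether a lifelong lack of microbes altered these transcripts. In testis, limma called none of the 27 members tested, and 0.0423% of all genes were called. At an unadjusted p under 0.05 there were 5 members, against 13.5% of all genes. The median log2 fold change was -0.09 for the members and -0.10 over all genes. Of the members tested, 3 did not overlap between the groups. Hist1h2ba was 16.6, 16.4, 13.5 and 17.7 TPM in GF testis, above all 3 SPF libraries (log2 fold change 0.56, SE 0.14, adjusted p = 0.334), and Hist1h1t was 10.7, 16.9, 11.8 and 11.1 TPM, also above all 3 (0.71, SE 0.20, adjusted p = 0.334). The H4 gene Hist1h4b, chosen after its values were seen, was 1.39, 1.14, 0 and 0 TPM in GF testis, below 1.91, 2.0 and 2.39 in SPF testis (adjusted p = 0.334). None of the 3 passed the threshold, and of all genes tested 2.16% were higher and 11.4% lower in GF testis without overlap. Hist1h2aa was 2.56, 1.65, 1.31 and 5.35 TPM and overlapped the SPF range.

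In GF caput, 1 of the 16 members tested was called, and it was lower, beside 0.348% of all genes. This was Hist1h4n, which has a near-identical copy. Among the abundant members Hist1h2bc lay between 130 and 161 TPM in GF caput (median 147) against 176 to 199 in SPF caput, without overlap, but did not pass the threshold (log2 fold change -0.33, SE 0.08, adjusted p = 0.0998). Hist2h2aa2 lay between 358 and 423 TPM (median 385) and overlapped the SPF range (-0.24, adjusted p = 0.247). In GF cauda none of 23 members was called by limma, with 5 (and 15.7% of all genes) at an unadjusted p under 0.05, beside 0.144% of all genes. The median log2 fold change of the members was -0.35 against 0.08 over all genes. Macrophage markers summed to 179 to 1197 TPM in GF cauda and 107 to 242 in SPF cauda, with 5 of 5 at a mean of at least 1 TPM in both, and their part in the member values was not tested. A test of whether the GF effect differed between cauda and caput called none of 20 members by limma, with 4 (and 11.5% of all genes) at an unadjusted p under 0.05, beside 0.0881% of all genes.

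In F1 caput the most abundant member was lower than in SPF caput. Hist2h2aa2 was 233, 239 and 306 TPM in the 3 F1 libraries, below all 4 SPF libraries (396 to 516). Its log2 fold change was -0.83 (SE 0.14, adjusted p = 0.0327), and it was the only call among 13 members, beside 2.72% of all genes. Hist1h2bc was 125, 123 and 146 TPM, below all 4 SPF libraries too, with an adjusted p of 0.0397 but a fold under 1.5 (log2 fold change -0.50, SE 0.10). The median log2 fold change was -0.50 for the 13 members and 0.11 over all genes, a shift of all genes that median-of-ratios scaling set to -0.01. Under that scaling Hist2h2aa2 changed by -0.96 (adjusted p = 0.0299) and Hist1h2bc by -0.63 and was called. Without SPF caput replicate 1, 2 or 3 or any 1 F1 library, Hist2h2aa2 was no longer called (adjusted p from 0.0528 to 0.101). Red cell markers summed to 842 to 1372 TPM in F1 caput (4 of 4 at a mean of at least 1 TPM) against 148 to 266 in SPF caput (3 of 4). Macrophage markers summed to 376 to 396 against 270 to 313 (5 of 5 in both), and the part of either in these values was not tested.

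In F1 cauda none of 22 members was called by limma, with 7 (and 23.5% of all genes) at an unadjusted p under 0.05, beside 0.188% of all genes. Hist2h2aa2 was 637, 610 and 614 TPM there, below all 4 SPF cauda libraries (log2 fold change -0.56, SE 0.19, adjusted p = 0.151). Of the all-gene background 3.06% of genes were lower in F1 cauda without overlap.

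Rag2-/- mice were compared with SPF mice to ask about a lack of T and B cells. In Rag2-/- caput 1 of 15 members, Hist1h4n, was called lower, beside 0.159% of all genes, and the median log2 fold change of the members was 0.00 against 0.06 over all genes. In Rag2-/- cauda limma called none of 22 members, with 2 (and 10.5% of all genes) at an unadjusted p under 0.05, beside 0.130% of all genes. T cell markers summed to 0 to 1.18 TPM in Rag2-/- cauda and 2.86 to 4.16 in SPF cauda. Such a difference was not seen in caput for the T cell marker that passed the filter there, Cd3e. Its mean was 2.05 TPM in Rag2-/- and 2.06 in SPF caput (log2 fold change 0.01, SE 0.18, adjusted p = 0.976 by limma).

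Recolonized GF mice were compared with SPF set 2. In testis none of 34 members was called by limma, with 2 (and 30.6% of all genes) at an unadjusted p under 0.05, beside 1.28% of all genes called. In caput none of 24 was called, with 12 (and 8.14% of all genes) at an unadjusted p under 0.05, beside 0.175% called. All members summed to 551 to 678 TPM in recolonized GF caput, below the 726 to 1434 of SPF set 2 caput. The sums of H1, H2A, H2B and H3 were also lower without overlap, and those of H4 overlapped. These sums were not tested. In cauda 1 of 25 was called, beside 0.323% of all genes. It was Hist1h2ac, an H2A gene of low level, at 0.72, 0.57 and 0.96 TPM in recolonized GF cauda and 2.06 to 3.27 in the 5 SPF set 2 libraries (median 2.39, log2 fold change -1.04, SE 0.14, adjusted p = 0.0186). The groups did not overlap. Without any 1 of the 3 recolonized GF libraries, or without set 2 cauda replicate 1, the call was lost (adjusted p from 0.0523 to 0.107).

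The call of Hist1h4n in GF and Rag2-/- caput involved a gene with a near-identical copy. The annotated transcripts of Hist1h4m (402 bases) and Hist1h4n (430 bases), H4 genes of the same stretch of chromosome 13, differed at 1 of 402 bases (99.8% identical). The difference is G36A, with the Hist1h4m base first and positions counted from 1 at the 5′ end of the transcript, and it is shown in capitals because it is all that separates them over that length.
Hist1h4m: agttttgtcttcGtcatgtctggtc
Hist1h4n: agttttgtcttcAtcatgtctggtc
Their promoter windows were identical at 298 of 299 bases, and 10.2% and 14.4% of their 50-base windows were unique. The split between them is therefore uncertain.

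In GF, Rag2-/- and recolonized GF caput the means of the pair lay on opposite sides of their controls, and in F1 caput they did not. Hist1h4n was 4.54, 4.98, 2.49 and 4.57 TPM in SPF caput, and it was listed at 0 in 3 of 6 GF caput libraries, with 0.63, 0.53 and 2.42 in the others (log2 fold change -1.82, SE 0.33, adjusted p = 0.0402), and at 0 in both Rag2-/- caput libraries (adjusted p = 0.0113). Hist1h4m was listed at 0 in 3 of 4 SPF caput libraries, with 1.46 in the other, and was 5.92, 2.83, 3.61, 5.00, 1.77 and 0 TPM in GF caput and 2.96 and 8.61 in Rag2-/- caput (adjusted p = 0.173 and 0.142). In F1 caput Hist1h4m was listed at 0 in all 3 libraries and Hist1h4n was 2.96, 0 and 2.42 TPM (adjusted p = 0.157). In recolonized GF caput Hist1h4m was 2.93, 12.6 and 10.1 TPM and Hist1h4n 4.24, 0 and 0, against Hist1h4m at 0 in 4 of 5 SPF set 2 libraries and Hist1h4n between 6.67 and 19.8 (adjusted p = 0.0962 and 0.139). In the cauda of recolonized GF mice the values were 6.59, 2.54 and 8.43 TPM for Hist1h4m and 0, 4.43 and 1.11 for Hist1h4n (adjusted p = 0.0677 and 0.0812). In the testis Hist1h4m was listed at 0 in all 15 libraries. The GF caput call of Hist1h4n was lost without any 1 SPF library or GF replicate 1, 2, 3 or 4 (adjusted p from 0.0573 to 0.155), and the Rag2-/- call without either Rag2-/- library (0.166 and 0.19).

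The sum of the pair was tested as 1 row as well. It was 3.79 ± 2.04 TPM in GF caput (n = 6) and 4.51 ± 1.49 in SPF caput (n = 4), a log2 fold change of -0.37 (SE 0.47, adjusted p = 0.709). In Rag2-/- caput it was 2.96 and 8.61 TPM (0.21, SE 0.38, adjusted p = 0.797), and in recolonized GF caput 9.96 ± 2.74 against 11.7 ± 5.18 in set 2 (-0.15, SE 0.30, adjusted p = 0.922). In GF cauda it was 14.3 ± 5.68 TPM (n = 5) against 14.5 ± 4.83 (-0.05, SE 0.31, adjusted p = 0.976). In F1 caput it was 1.79 ± 1.58 TPM (n = 3), a log2 fold change of -1.16 (SE 0.46, adjusted p = 0.144). In F1 cauda it was 6.24 ± 0.74 TPM (n = 3), below all 4 SPF cauda libraries (-1.05, SE 0.27, adjusted p = 0.102), and in recolonized GF cauda 7.70 ± 1.61 against 15.9 ± 9.06 in set 2 (-0.81, SE 0.38, adjusted p = 0.338). With the pair as 1 row, no member was called in GF or Rag2-/- caput. The sum was chosen after the values of the pair had been seen.

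**Figure D4:**
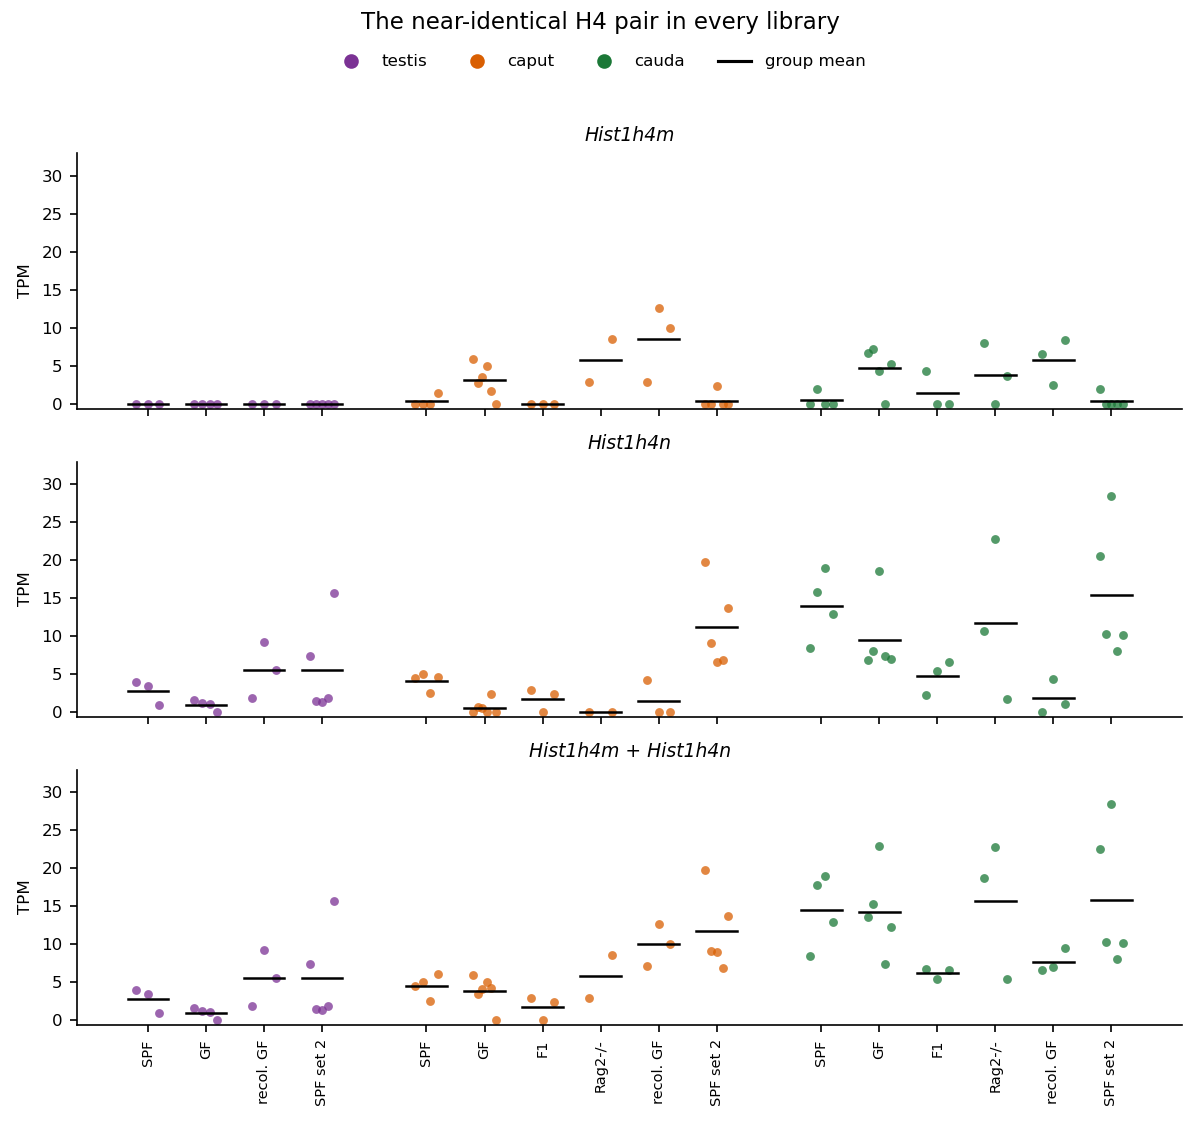
TPM (y axes, linear, the same in all panels) of Hist1h4m, Hist1h4n and their sum in every library by group and tissue (x axis), with group means as short lines. In caput Hist1h4m lies at or near 0 in SPF and SPF set 2 and above 0 in most GF, Rag2-/- and recolonized GF libraries, Hist1h4n does the reverse, and the caput sums of SPF, GF and Rag2-/- mice overlap.

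SPF set 2 and SPF mice are both controls, and their difference shows how far these transcripts vary between sets of libraries. In testis 5 of 34 members were higher in set 2 and none lower, beside 17.7% of all genes (8.80% higher, 8.95% lower). They were Hist1h4k (1.97, SE 0.59), Hist1h4i (1.44), Hist4h4 (1.03), Hist3h2a (0.82) and Hist2h3c1 (0.66). Hist1h4k was 1.16, 1.23 and 0 TPM in SPF testis and 4.65, 2.09, 4.86, 3.86 and 24.4 in set 2, without overlap. In caput 4 of 21 were higher, beside 19.0% of all genes (17.7% higher, 1.30% lower), namely Hist1h3e (1.35, SE 0.27), Hist1h4n (1.17), Hist1h4c (1.07) and Hist2h3c1 (0.64). Without SPF testis replicate 2 or 3 the testis count was 2 and 3, without set 2 testis replicate 2 it was 8, and without set 2 caput replicate 4 the caput count was 2. In cauda none of 25 was called by limma, with 4 (and 35.9% of all genes) at an unadjusted p under 0.05, beside 0.0874% of all genes.

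The sets also differed in Rmrp and Rpph1, the RNA components of RNase MRP and RNase P, which carry no poly(A) tail. Their sum lay between 26.6 and 111 TPM in the testis libraries of SPF and GF mice and between 65.2 and 1826 in those of set 2 and recolonized GF mice, ranges that overlapped, with 1826 in set 2 testis replicate 5. That library was also the highest for all 3 testis variants. Hist1h2ba was 30.0, 15.7, 19.4, 12.6 and 126 TPM in set 2 testis, Hist1h1t 18.4, 10.3, 12.5, 11.2 and 47.8, and Hist1h2aa 8.17, 6.38, 8.79, 3.45 and 22.1, with replicate 5 last in each. In recolonized GF testis Hist1h2ba was 38.6, 25.2 and 34.4 TPM.

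A slope of log2(TPM + 1) on log2 of the summed Rmrp and Rpph1, with group as a term, was fitted by limma in each tissue for all genes, a choice made after the values had been seen. In testis 2 of 34 members were called, both positive, beside 0.0349% of all genes, namely Hist1h2ba (slope 0.57, SE 0.08, adjusted p = 0.0237) and Hist1h4c (0.80, SE 0.12, adjusted p = 0.0415). The slope of Hist1h1t was 0.39 (adjusted p = 0.0801). At an unadjusted p under 0.05 there were 16 of the 34 members, against 1.94% of all genes, and the median slope was 0.26 for the members and 0.00 over all genes. Without set 2 testis replicate 5, none of 30 members was called and 3 had an unadjusted p under 0.05, against 4.43% of all genes. In caput none of 17 and in cauda none of 22 members was called by limma, beside 0.0327% and 0.0628% of all genes. At an unadjusted p under 0.05 there were 2 and 2, against 1.91% and 3.97% of all genes.

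**Figure D5:**
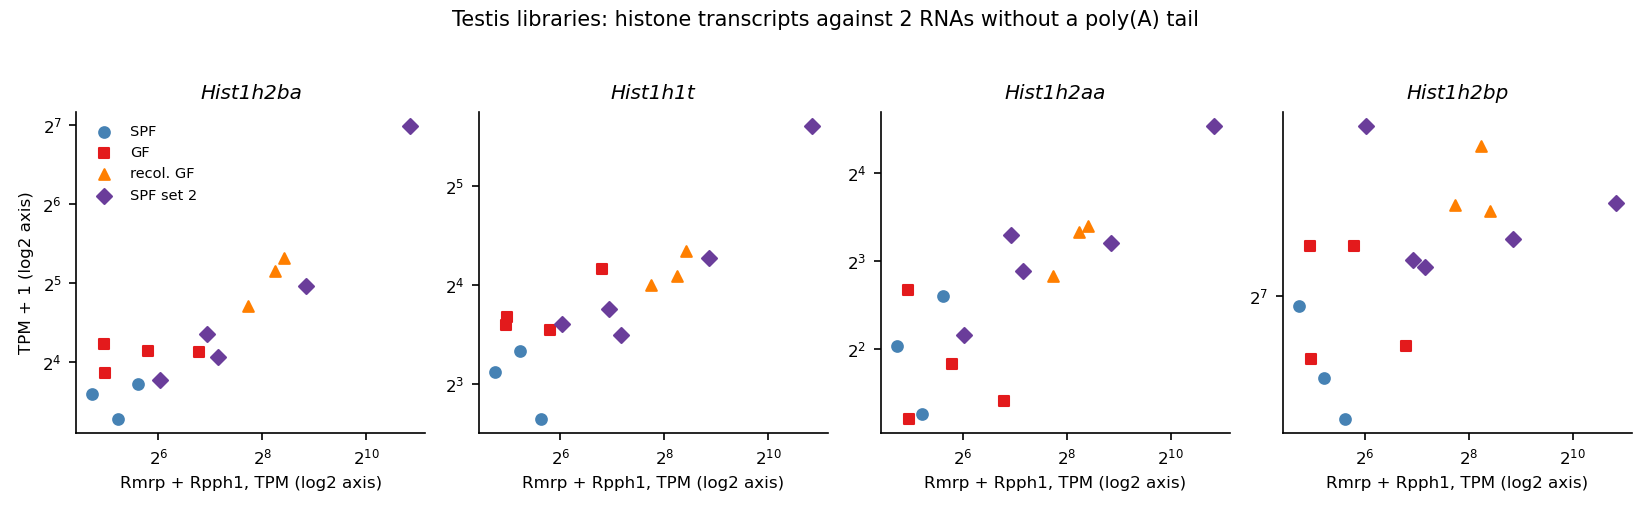
TPM + 1 of Hist1h2ba, Hist1h1t, Hist1h2aa and Hist1h2bp (y axis, log2 axis, 1 panel per gene) against the summed TPM of Rmrp and Rpph1 (x axis, log2 axis) in each testis library, coloured by group. The rightmost point is set 2 testis replicate 5 at 1826 TPM, where Hist1h2ba reached 126 TPM.

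Whether a member's annotated transcript ends near a poly(A) signal went only in part with its level. Of the 14 genes with AATAAA near the end, 9 had a mean of at least 1 TPM in SPF testis, 6 in caput and 8 in cauda. Of the 31 with a stem-loop and no such signal, 12, 7 and 12 reached it, and of the 19 with neither, 7, 2 and 3. Hist2h2aa2, the highest member in every tissue, had a stem-loop 35 bases before its annotated end and no AATAAA there. Hist1h2bp had both kinds of transcript, of which the shorter (469 bases) ended 38 bases after a stem-loop and the longer (621 bases) had AATAAA 17 bases before its end and no stem-loop. These counts are descriptions, since the annotation and not the captured RNA defined the ends.

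Members differed in how steady they were between groups of the same tissue. The ratio of the highest to the lowest group mean was smallest in testis for Hist2h2aa2 (1.12), Hist1h2bc (1.19) and the pseudogene Hist3h2bb-ps (1.31). In caput it was smallest for Hist3h2a (1.34), Hist2h2be (1.59) and Hist1h2bc (1.63), and in cauda for the same genes at 1.38, 1.41 and 1.55. Among genes above 0 in every group mean, the largest ratios were those of Hist1h2bb (12.3), Hist1h4k (11.3) and Hist1h2ao (10.2) in testis, Hist1h4c (20.3), Hist1h4d (13.6) and Hist4h4 (12.2) in caput, and Hist1h4m (14.9), Hist1h3a (13.9) and Hist2h3b (10.5) in cauda. The ratio of Hist1h2bb rested on set 2 testis replicate 5, at 9.88 TPM against at most 1.65 in the other testis libraries, and that of Hist2h3b on cauda replicate 2 of the Rag2-/- mice. No ratio could be given in testis for 7 members, in caput for 8 and in cauda for 6, which reached a mean of 1 TPM in 1 group but were listed at 0 in every library of another, among them Hist1h4j (3.52 TPM in set 2 testis), Hist1h4n (11.2 in set 2 caput) and Hist1h4m (8.55 in recolonized GF caput). Hist1h4d, an H4 gene, was 13.8, 13.8 and 17.1 TPM in recolonized GF caput and 0.89 and 1.30 in Rag2-/- caput. These groups have different controls, and no caput member was called in recolonized GF mice against theirs, SPF set 2. Ratios over all groups of a tissue also hold the difference between SPF set 2 and SPF. The H4 sum in caput was 51.5 ± 4.21 TPM in recolonized GF mice and 48.1 ± 21.3 in set 2, against 24.1 ± 3.02 in SPF mice.

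Lists of genes that make and handle histones were compared between SPF testis and caput, where 50.5% of all genes were called higher and 27.5% lower and the median log2 fold change of all genes was 0.65. Of 17 tested genes that process histone mRNA, 14 were higher in testis than in caput and none lower (median 1.57). Slbp, which binds the stem-loop, was 54.0 against 8.51 TPM (log2 fold change 2.53), Ncbp1, a cap-binding subunit, changed by 3.84, Cpsf2, a subunit of the cleavage complex, by 2.86, and Zfp473 by 2.13. All 15 mitotic genes were higher, with Aurka at 5.92 and Top2a at 4.81, and 13 of 19 S phase genes were higher and 2 lower. Of 13 histone chaperone genes 11 were higher and none lower, with Nasp, which carries H1 and H3-H4, at 5.50. Of 11 genes of the histone-to-protamine exchange 10 were higher, among them Tnp2 (7.86), Tnp1 (7.73) and Prm1 (7.01), and so were all 5 tested of the other testis histones, led by Hils1 (9.53) and H1fnt (7.55), linker histones of spermatids. The 12 replacement histone genes, which lie outside the clusters and are polyadenylated, were split at 4 higher and 4 lower. H2afy3 was higher (3.89), and H1f0 (-2.46), H2afj (-2.38) and H2afy2 (-2.09) were lower.

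In cauda against caput, where 19.0% of all genes were called higher and 16.2% lower, the lists gave fewer calls than in testis against caput. Of 15 mitotic genes 1 was higher (Ccna2, 0.98) and none lower. Of 19 S phase genes 5 were higher, among them E2f2 (1.55), Mcm4 (1.23) and Mcm6 (1.11), and 1 was lower. Of 13 chaperone genes 5 were higher and none lower, led by Nap1l1 (1.18) and Hat1 (1.16), and Slbp was not among the 3 histone mRNA processing genes that were higher. Of 12 replacement histone genes H3f3b was higher (0.88), and H2afy2 (-0.98) and H1f0 (-0.71) were lower. Of 33 RNAs that lack a poly(A) tail 4 were lower in cauda and none higher, among them the ribosomal precursor Rn45s (-2.15), Rpph1 (-1.57) and Rmrp (-0.71).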

How the data were processed

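RNA of testis, caput and cauda epididymis was sequenced by the authors from libraries made with oligo(dT) beads and a strand-specific kit, as paired 50-base reads. The authors estimated the abundance of each gene in TPM with RSEM on mm10, in a pipeline whose versions the sources do not state, and deposited TPM for 62 libraries and 23845 genes. TPM have the same total in each library and keep no read depth, so no counting interval could be given and no count model was used. No 2 libraries were identical.

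limma 3.58.1 (R 4.3.3) was applied to log2(TPM + 1) of every gene whose mean over the compared libraries reached 1 TPM, and p-values were adjusted by Benjamini-Hochberg over all of these. A call needed both an adjusted p no higher than 0.05 and a change of 1.5-fold or more. The study's own test used counts, which TPM do not give. The fit was tested on simulated data. Each pair of groups of the same tissue was fitted alone. The tissue comparisons came from 1 fit over testis, caput and cauda of a set. The test of GF effects between cauda and caput came from 1 fit over SPF and GF caput and cauda. Replicates are separate mice, so p-values measure the spread between mice. GF cauda replicate 4, which the authors removed, was left out.

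Named were the 3 testis variants, the 5 highest members per tissue in SPF mice, up to 10 called members per group comparison, the 5 largest called rises and falls per tissue comparison, the 3 largest and smallest ratios of group means, and up to 4 called genes of each other list. Members and lists were chosen with earlier results of these data known. Stem-loops, AATAAA within 50 bases of the end and unique 50-base windows were read from GENCODE M21 transcripts, positions and promoters from RefSeq (GRCm38.p6). Alternatives were a pseudocount of 0.1, no filter, a mean of at least 5 TPM, median-of-ratios scaling, a replicate block, a trended prior, array weights, 1 fit over all groups of a tissue, and leaving out each library. Plots were drawn with matplotlib 3.10.9.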

Additional observations from a re-analysis of the deposited data

Results flagged for a closer look

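Of 123 groups of 4 to 10 libraries in which a sum or a gene was examined, 23 held 1 library whose gap to the next was large against the range of its group (Dixon's test at the 95% level), where chance gives about 1 in 20. They came from 9 libraries, and many of the sums share their genes. No explanation was tested.

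Caput replicate 4 of SPF set 2 stood above the other 4 in 8 of these. All members summed to 1433.78 TPM there against 901.99 in the next library, H1 to 130.7 against 69.76, H2A to 861.32 against 542.11 and H2B to 318.6 against 216.18. Hist2h2aa2 was 824.72 TPM against 501.83, Hist1h2bc 285.48 against 198.21, Hist1h1c 126.82 against 68.27 and Hist1h4h 39.11 against 15.29.

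Testis replicate 5 of SPF set 2 was highest for H4 (254.75 TPM against 131.1 in the next library) and for the testis variants together (195.49 against 56.51), with Hist1h2ba at 125.57 against 29.99, Hist1h1t at 47.84 against 18.35 and Hist1h2aa at 22.08 against 8.79. Testis replicate 4 of the same group was highest for Hist2h2aa2 (1613.02 TPM against 1162.9) and Hist1h2bc (45.72 against 31.15).

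In cauda of SPF set 2, replicate 4 was highest for all members together (1971.06 TPM against 1559.14) and for Hist1h4h (140.83 against 71.71), and replicate 3 for H3 (33.84 against 22.1) and Hist3h2a (52.66 against 40.02). Among the other groups, GF caput replicate 4 was highest for H3 (20.47 TPM against 15.15), GF cauda replicate 3 for Hist1h4n (18.53 against 8.05), SPF caput replicate 3 for Hist1h4h (15.21 against 8.15) and SPF caput replicate 4 for Hist2h2be (7.34 against 6.15).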

How the results depend on the processing

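The called tissue differences of named members in SPF mice kept their direction in every alternative that tested them. Few group calls were stable. Of the log2 fold changes of named members under all alternatives, 122 gained a call with the same sign and 105 lost one. Among the members called in the report, 1 changed sign. The remaining 7516 were counted as the same, which includes any change of sign of a member not called in the report. With a mean of at least 5 TPM, fewer genes were tested and the calls fell from 18 to 8 in testis against caput, from 18 to 8 in testis against cauda and from 14 to 8 in cauda against caput, in SPF set 2 from 28 to 12, from 28 to 12 and from 12 to 7, and in set 2 against SPF caput from 4 to 2. For the other calls the cause of a change was not tested. GF caput gave 1 call in the report, 0 with a pseudocount of 0.1, no filter, a mean of at least 5 TPM, 1 fit over all groups or the summed pair, and 2 with a replicate block or array weights. GF cauda gave 0, and 1 with a replicate block or array weights. F1 caput gave 1, 2 with a pseudocount of 0.1, a mean of at least 5 TPM or 1 fit over all groups, 3 with a trended prior or array weights, 4 with median-of-ratios scaling and 0 with a replicate block. F1 cauda gave 0, 1 with no filter and 3 with array weights. Rag2-/- caput gave 1, 2 with a replicate block and 0 with no filter, a mean of at least 5 TPM, 1 fit over all groups or the summed pair. There the difference of Hist1h4n on the log2(TPM + 1) scale was -2.33 and that of the pair 0.208 (adjusted p = 0.797 by limma). Rag2-/- cauda gave 0, and 1 in 1 fit over all groups. Recolonized GF testis gave 0, and 5 with array weights. Recolonized GF caput gave 0, 2 with array weights and 4 in 1 fit over all groups. Recolonized GF cauda gave 1, 0 with a replicate block, 2 with median-of-ratios scaling or 1 fit over all groups, 3 with a trended prior and 5 with array weights. Hist1h2ac, the call in the report, was itself lost with a replicate block (adjusted p = 0.21 by limma) and in 1 fit over all groups (0.523), so that neither of the 2 calls there was the same gene. Set 2 against SPF gave 5 in testis and 8 with no filter or a replicate block, and 0 in cauda, 2 with median-of-ratios scaling and 4 with array weights. The replicate block moved no other count by over 1.5 times. Libraries were not paired by number in the report. In no comparison with at least 3 pairs were all correlations of same-numbered libraries above 0.1 (in SPF testis against caput, for example, -0.012 to 0.09). Different tissues of 1 mouse need not vary together, so these correlations cannot decide whether same-numbered libraries share a mouse.

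Leaving out 1 library at a time gave 15 to 19 calls in testis against caput, 17 to 19 in testis against cauda and 13 to 14 in cauda against caput of SPF, and 22 to 28, 27 to 31 and 10 to 15 in set 2. It gave 0 to 2 in GF caput (2 without GF replicate 6), 0 to 1 in GF cauda (1 without GF replicate 5), 0 to 1 in F1 caput, 0 to 2 in Rag2-/- caput (2 without SPF replicate 4), 0 to 2 in recolonized GF caput (2 without its replicate 1, 1 without set 2 replicate 3) and 0 to 1 in recolonized GF cauda. For set 2 against SPF it gave 2 to 8 in testis, 2 to 5 in caput and 0 to 2 in cauda (2 without SPF replicate 1), and it gave 0 throughout in GF testis, F1 cauda, Rag2-/- cauda, recolonized GF testis and the test of GF effects between cauda and caput. The testis slope on Rmrp and Rpph1 gave 2 calls, 0 in SPF and GF alone, 1 in set 2 and recolonized GF alone and 0 without set 2 testis replicate 5. Median-of-ratios scaling moved the median of all genes from 0.28 to -0.01 in F1 cauda, from -0.16 to -0.01 in recolonized GF testis and from 0.18 to -0.02 in set 2 against SPF caput, and the share of calls that were higher over all genes from 78.7% to 45.8% in F1 caput. TPM keep no depth, so low values have no stated precision.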
